A study of Saccharomyces cerevisiae with 6 samples.

Results

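The 4 subunit genes of succinate dehydrogenase, SDH1, SDH2, SDH3 and SDH4, and the fumarase gene FUM1 were taken by name from the nuclear mRNA class of both deposited tables, which gave 5 of 5605 nuclear mRNA features. RNA came from mitochondria of the yeast Saccharomyces cerevisiae, strain CEN.PK113-7D, a laboratory strain. One group was 3 biological replicate cultures labelled ethanol, for which the growth protocol gives an ethanol-glycerol carbon source, and the other was 3 biological replicate cultures on glucose, and both groups shared the strain, a synthetic medium and harvest during exponential growth. All RNA was given a poly(A) tail with a bacterial enzyme and read directly on a Nanopore device, so that each read came from an RNA molecule and not from cDNA. The stated purpose was to compare the mitochondrial transcriptomes of the growth conditions, and the nuclear mRNA described here is what was recovered with the organelles. Whole-cell RNA was not measured, so a difference in an mRNA's cellular level and one in how much of it came with the mitochondria cannot be told apart.

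Succinate dehydrogenase, or complex II, is the enzyme shared by the tricarboxylic acid (TCA) cycle and the respiratory chain. It oxidises succinate to fumarate in the matrix and passes the electrons to ubiquinone in the inner membrane, and fumarase then hydrates fumarate to malate. In yeast all of its subunits are encoded in the nucleus and imported, and its genes are known to be repressed by glucose. Fumarase is made from a single nuclear gene and is found both in the matrix and in the cytosol.

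Levels are given in nRPM, reads per 1000000 nuclear mRNA reads after removal of ENO2, the gene of a glycolytic enolase, and the values of a group stand in the order of replicates 1, 2 and 3. ENO2 made up between 69.96% and 87.5% of the nuclear mRNA CPM (counts per 1000000 assigned reads) in the ethanol libraries and between 21.1% and 34.4% in the glucose libraries. The control RNA supplied with this type of Nanopore kit is an ENO2 transcript, and whether it was added here is not given in the sources used here. Without ENO2 the nuclear mRNA depth was 8284, 19087 and 63081 reads in ethanol, and 121147, 97474 and 107311 reads in glucose. One read was thus worth 121 nRPM in ethanol replicate 1 and 8.25 nRPM in glucose replicate 1. The carbon source labels were checked with nuclear genes of known response: JEN1, a lactate permease, had at least 2620 nRPM in each ethanol library and at most 8.25 in a glucose library, and HXT4, a glucose transporter, had no read in ethanol and at least 1643 nRPM in each glucose library. ADH2 and ICL1, used on ethanol, had at least 1569 and 1086 nRPM in ethanol and at most 18.6 and 37.3 in glucose. HXT3, also a glucose transporter, had at least 4647 nRPM in glucose. Its only ethanol reads were 4 in replicate 2 (209.6 nRPM).

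All 5 mRNAs were higher in ethanol, by 6.35-fold to 13.6-fold as ratios of group means, and for each of them every ethanol library lay above every glucose library. All 5 passed the threshold of the limma test (Benjamini-Hochberg adjusted p under 0.05 over 3393 nuclear mRNA features), against a background of 10.5% of the features called higher in ethanol and 11.2% called lower. Complete separation with ethanol on top was found for 20.2% of the features tested. Each member also had a mean above the filter of 50 nRPM in glucose alone, so that none entered the test through its ethanol values.

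**Figure D1:**
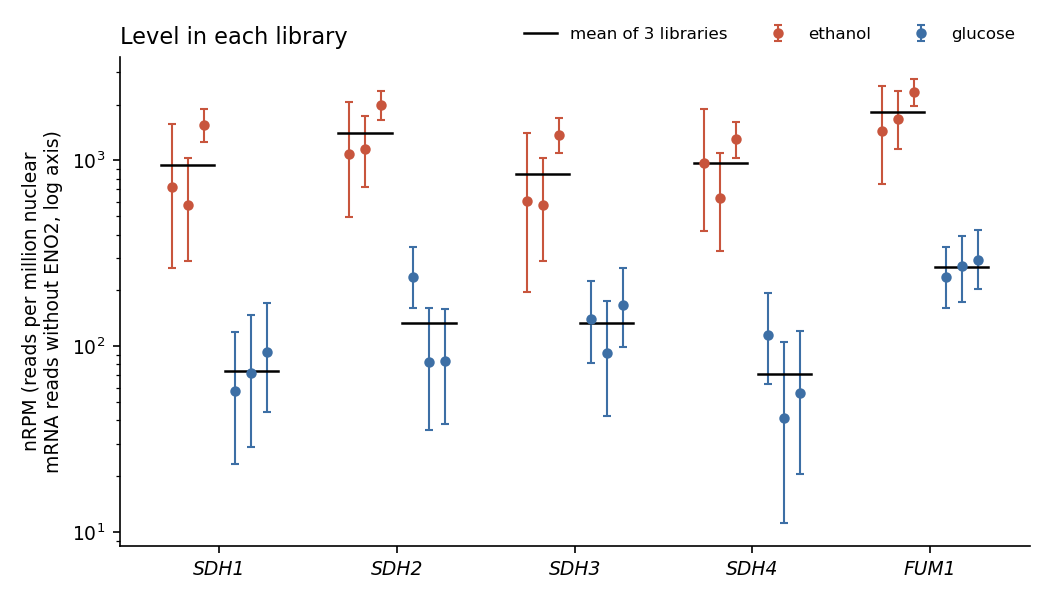
Level of each mRNA in each library, in nRPM on a log axis, with exact binomial 95% counting intervals as bars and the mean of the 3 libraries as a black line. Every ethanol point lies above every glucose point of the same gene, and the widest ethanol intervals belong to replicate 1, which had 8284 nuclear mRNA reads.

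SDH1 (chromosome 11, 175593 to 177515, minus strand, on the CEN.PK113-7D assembly of the tables) encodes the flavoprotein subunit, which carries the FAD cofactor and the succinate binding site. It had 724, 576 and 1554 nRPM in ethanol, from 6, 11 and 98 reads, and 57.8, 71.8 and 93.2 nRPM in glucose, from 7, 7 and 10 reads. Ethanol replicate 3 was the highest library, and the lowest ethanol library still lay far above the highest glucose library. The means were 951 ± 527 in ethanol and 74.3 ± 17.8 in glucose (n = 3, ± SD), a ratio of 12.8. On the scale of log2(nRPM + 50), which understates the change of low genes, the log2 fold change, called log2 change here, was 2.90 ± 0.41 (SE, limma adjusted p = 0.000882).

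SDH2 (chromosome 12, 38047 to 38847, minus strand) encodes the iron-sulfur subunit, which conducts the electrons from the flavin towards the membrane. Its level was 1086, 1153 and 1982 nRPM in ethanol, from 9, 22 and 125 reads. In glucose it was 235, 82.1 and 83.9 nRPM. Glucose replicate 1 was the high library of its group, with 28.5 reads where the other two had 8 and 9. The means were 1407 ± 499 in ethanol and 134 ± 87.9 in glucose (n = 3, ± SD), a ratio of 10.5 that became 16.96 without glucose replicate 1. The log2 change was 3.04 ± 0.40 (SE, limma adjusted p = 0.000572).

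SDH3 (chromosome 11, 186053 to 186649, plus strand) and SDH4 (chromosome 4, 797573 to 798118, plus strand) encode the membrane anchor subunits, which hold the catalytic part on the inner membrane and form the ubiquinone site. SDH3 had 604, 576 and 1363 nRPM in ethanol, from 5, 11 and 86 reads, and 140.3, 92.3 and 168 nRPM in glucose. SDH4 had 966, 629 and 1299.9 nRPM in ethanol, from 8, 12 and 82 reads, and 116, 41.0 and 55.9 nRPM in glucose, from 14, 4 and 6 reads. Replicate 3 was again the highest ethanol library for both. Per kilobase of feature length, SDH4 was above SDH3 in each ethanol library and SDH3 above SDH4 in each glucose library. In nRPM without that division the glucose order was the same, while in ethanol replicate 3 SDH3 had 1363 and SDH4 1299.9.

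The ratio of means was 6.35 for SDH3 and 13.6 for SDH4. The log2 change of SDH3 was 2.21 ± 0.40 (SE, limma adjusted p = 0.00355). That of SDH4 was 3.06 ± 0.39 (SE, limma adjusted p = 0.000471). SDH3 had the smallest change of the 5 genes and SDH4 the largest on this scale. The top place was not firm, as SDH2, at 3.04, was within the SE of SDH4. Without ethanol replicate 1, SDH2 had 3.19 and SDH4 3.03. SDH3 was also the only member whose counting intervals met across the groups, with a lowest ethanol bound of 196 and a highest glucose bound of 265 nRPM (exact binomial 95% intervals, which cover counting error only). For the other members the lowest ethanol bound stayed above the highest glucose bound.

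FUM1 (chromosome 16, 56080 to 57546, plus strand) had the most reads of the 5 genes in each ethanol library. It had 1449, 1677 and 2330 nRPM in ethanol, from 12, 32 and 147 reads, and 235, 272 and 294 nRPM in glucose, from 28.5, 26.5 and 31.5 reads. Parts of reads in the tables show that some reads had been divided among features. The means were 1818 ± 458 in ethanol and 267 ± 29.5 in glucose (n = 3, ± SD), a ratio of 6.81. The log2 change was 2.54 ± 0.30 (SE, limma adjusted p = 0.000302).

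Together the 4 subunit mRNAs took 0.338%, 0.293% and 0.620% of the nuclear mRNA reads without ENO2 in ethanol, and 0.0549%, 0.0287% and 0.0401% in glucose. With FUM1 added, the share was 0.599% ± 0.220 in ethanol and 0.0679% ± 0.0113 in glucose (n = 3, ± SD). Neither sum overlapped between the groups. Among the 3393 features ordered by log2 change, from the highest down, SDH4 was 49th, SDH2 51st, SDH1 63rd, FUM1 102nd and SDH3 134th.

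**Figure D2:**
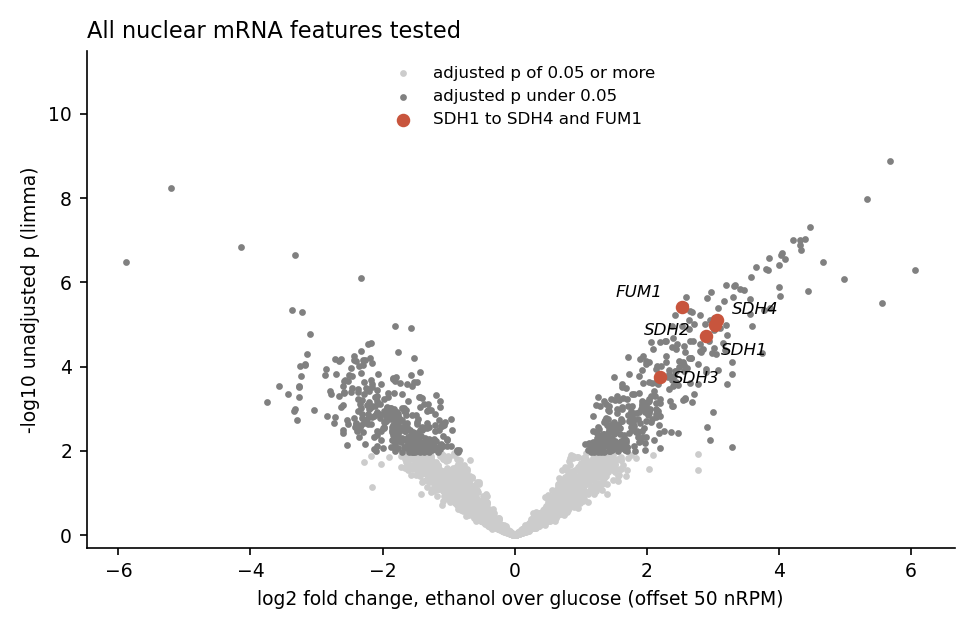
Log2 fold change (ethanol over glucose, offset 50 nRPM) against -log10 of the unadjusted limma p for the 3393 nuclear mRNA features tested, with the features past an adjusted p of 0.05 in dark grey and the 5 members in red. The members lie between 2.21 and 3.06 on the horizontal axis, inside the cloud of features called higher.

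Levels of different genes are set side by side here in nRPM per kilobase of feature length. In ethanol the order was SDH4 with 1767 ± 615, SDH2 with 1756 ± 623, SDH3 with a range from 965 to 2284, FUM1 with 1239.6 ± 312 and SDH1 with 495 ± 274 (n = 3, ± SD). The ranges of SDH4, SDH2, SDH3 and FUM1 overlapped in ethanol, and that of SDH1 lay below them all, from 299.7 to 808 where the lowest of the others was 965. In glucose the order was SDH3 with 224 ± 63.9, FUM1 with 182 ± 20.1, SDH2 with 167 ± 109.8, SDH4 with 129.7 ± 72.2 and SDH1 with 38.6 ± 9.27. There too the neighbours from SDH3 to SDH4 overlapped and SDH1 stood below, with at most 48.5. The last place of SDH1 rests on this division, as it has the longest feature of the 5 (1923 bases). A direct RNA read comes from a single molecule, and in nRPM without the division the ethanol means were 1818 for FUM1, 1407 for SDH2, 965 for SDH4, 951 for SDH1 and 848 for SDH3. In glucose they were 267 for FUM1, 134 for SDH2, 133 for SDH3, 74.3 for SDH1 and 70.8 for SDH4.

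Each member ranked higher among the nuclear mRNAs in every ethanol library than in any glucose library. These ranks restate the levels above, and the share of all features with ranks so separated was not counted. Ranks of low features also depend on the depth of a library, which differed between the groups. By reads per kilobase SDH2 held ranks between 76 and 154 in the ethanol libraries and between 611 and 1481 in the glucose libraries. SDH4 held ranks from 83 to 197 in ethanol and from 851 to 1920 in glucose. For SDH1 the ranks ran from 274 to 771 in ethanol and from 2661 to 3548 in glucose, for SDH3 from 89 to 246 and from 596 to 1028, and for FUM1 from 137 to 228 and from 827 to 1067.

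The balance among the mRNAs was compared by their read ratio to SDH1 within each library (0.5 read added to both), which no scaling of the library changes. The log2 ratio of SDH3 to SDH1 was -0.24, 0 and -0.19 in ethanol, and 1.22, 0.34 and 0.82 in glucose. There was no overlap, and the mean was lower in ethanol by 0.94 on the log2 scale (difference -0.94, exact permutation test, two-sided, p = 0.1, and 0.2 adjusted over the 4 ratios). The log2 ratio of FUM1 to SDH1 was 1.01 ± 0.46 in ethanol and 1.80 ± 0.18 in glucose (n = 3, ± SD), also without overlap (exact permutation p = 0.1, adjusted 0.2). The lowest p that this exact test can give with 3 libraries a group is 0.1, so that neither difference could pass 0.05. Both ratios share SDH1, with its few reads, as denominator. Set against the sum of the 4 subunit mRNAs, FUM1 overlapped between the groups, with ratios of 0.376 to 0.571 in ethanol and 0.429 to 0.946 in glucose. That ratio was not tested.

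The log2 ratio of SDH2 to SDH1 had group means of 0.62 ± 0.32 in ethanol and 0.66 ± 1.13 in glucose (n = 3, ± SD, exact permutation p = 1). The glucose spread came from replicate 1, at 1.95 where replicates 2 and 3 had 0.18 and -0.14. The log2 ratio of SDH4 to SDH1 was 0.08 ± 0.32 and -0.16 ± 0.96 (exact permutation p = 0.8). Glucose replicate 1 was again the high library of its group, at 0.95. As shares of the 4 subunit mRNAs, SDH3 took 17.9% to 21.99% in ethanol and 25.6% to 41.9% in glucose, and SDH2 took 34.5% ± 4.17 and 30.8% ± 11.1 (n = 3, ± SD). The subunit reads behind these shares numbered 28, 56 and 391 in ethanol and 66.5, 28 and 43 in glucose.

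**Figure D3:**
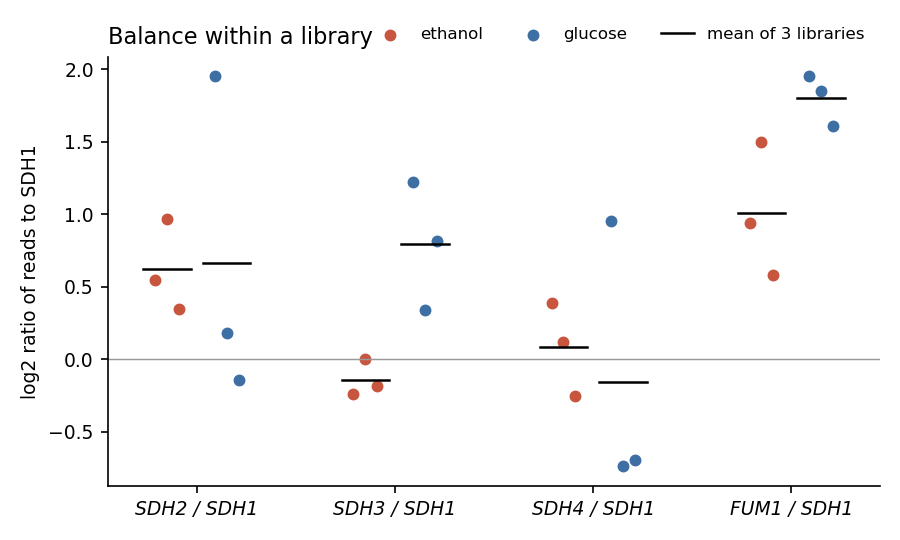
Log2 ratio of the reads of each gene to those of SDH1 in each library (0.5 read added to both genes), with the mean of the 3 libraries as a black line and a grey line at equal reads. The SDH3 and FUM1 ratios do not overlap between ethanol and glucose, while those of SDH2 and SDH4 do, with glucose replicate 1 at 1.95 and 0.95.

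The size of the change depended on the scale. On the deposited CPM, which count all RNA of a library, FUM1 had 14.2, 119.6 and 219 CPM in ethanol and 30.6, 25.4 and 28.8 CPM in glucose. The groups overlapped there for all 5 genes through ethanol replicate 1, which gave only 0.977% of its CPM to nuclear mRNA without ENO2, where the other libraries gave between 7.14% and 13.0%. The limma log2 changes on that scale were 2.08 for SDH1, 2.06 for SDH2, 1.18 for SDH3, 2.29 for SDH4 and 1.34 for FUM1, and none passed the threshold (limma adjusted p between 0.141 and 0.471). Of the 1695 features tested there, 42 were called higher and 199 lower, against 356 higher and 379 lower of 3393 on the main scale. That fit also had its own offset and filter and took in features other than nuclear mRNA. The counts thus do not differ through scaling alone. The median log2 change of nuclear features was -1.48 on the deposited scale and -0.08 on the main scale, and relative to these medians the members lay between 2.66 and 3.77, and between 2.29 and 3.15.

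**Figure D4:**
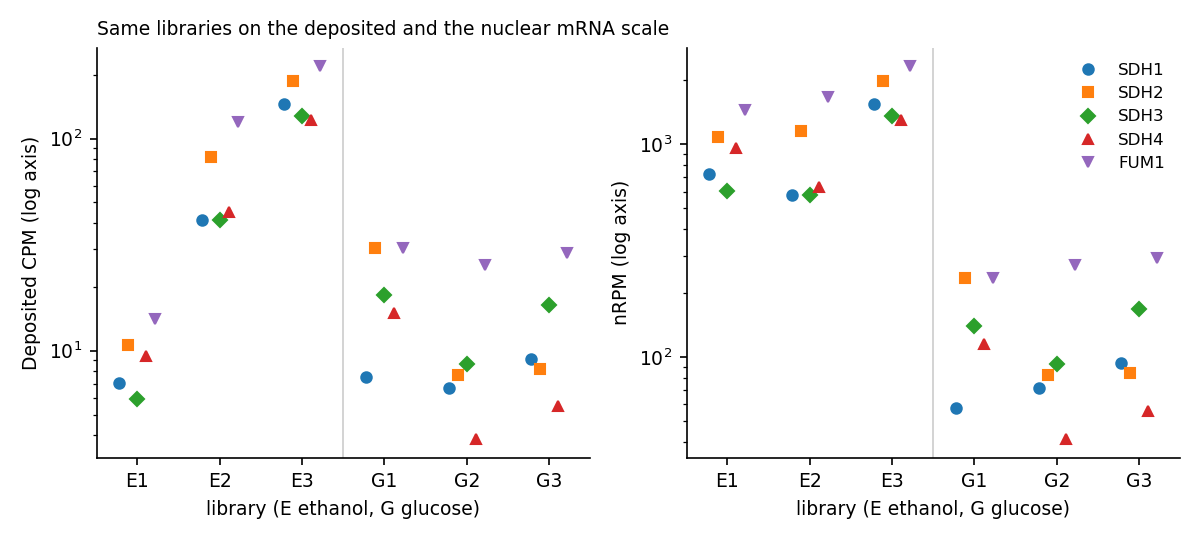
The same values in each library on the deposited CPM scale (left) and in nRPM (right), both on log axes, with ethanol libraries E1 to E3 left of the grey line and glucose libraries G1 to G3 right of it. The ethanol replicate 1 values fall to glucose levels on the left, for FUM1 at 14.2 CPM, and stand with the other ethanol libraries on the right, at 1449 nRPM.

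With ENO2 kept in the nuclear total, 82 of the 1779 features tested were called higher and 1346 lower, and the median log2 change was -1.28. SDH1, SDH2 and SDH4 still passed there with smaller log2 changes of 1.09, 1.16 and 1.22, while SDH3 had a log2 change of 0.49 (limma adjusted p = 0.261) and FUM1 of 0.67 (limma adjusted p = 0.153). Over the 17 alternatives the limma adjusted p ran from 1.965e-05 to 0.471 for SDH3 and from 1.351e-08 to 0.417 for FUM1. In the 6 fits that each left out 1 library, all 5 genes stayed past the threshold. Without ethanol replicate 1, the shallowest library, the log2 changes were 3.02 for SDH1, 3.19 for SDH2, 2.38 for SDH3, 3.03 for SDH4 and 2.68 for FUM1.

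The genes of the related lists include 6 whose mean in glucose was under the filter and which entered the test through their ethanol values alone, EMI5, CIT3, YMR31, SFC1, ICL1 and NDE2, so that their values are a description and the counts are also given without them. All counts of the lists below stand against 10.5% of all features called higher in ethanol and 11.2% called lower. In the short lists a single call makes a large share.

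Of 6 assembly factors of complex II, 4 were found by name and tested, and 2 of these were called higher (1 of 3 without EMI5). EMI5 (Sdh5), which is needed to attach FAD to Sdh1, had 39.5 ± 8.05 nRPM in glucose and 217 ± 52.5 in ethanol (n = 3, ± SD), a log2 change of 1.56 (limma adjusted p = 0.0186). FMP21 (Sdh8), a chaperone of the flavinated subunit, rose from 57.4 ± 27.5 to 318 ± 145 nRPM, a log2 change of 1.74 (limma adjusted p = 0.0160). ACN9 (Sdh7), which acts on the iron-sulfur subunit, and FLX1, the mitochondrial FAD carrier, did not pass, with log2 changes of 0.99 and -0.36. Their levels were 644 ± 413 and 66.7 ± 61.3 nRPM in ethanol and 259 ± 37.4 and 82.9 ± 17.1 in glucose. A feature that the tables call only Succinate (chromosome 4, 1212664 to 1212903, minus strand), singled out after its values were seen, has the length of 240 bases and the neighbours, RGA2 and ARO10, that the RefSeq table gives for the assembly factor SDH6. Its reads numbered 1, 7 and 3 in the ethanol libraries against 2, 1 and 0 in those from glucose (limma adjusted p = 0.0477, higher), and it too entered the test through ethanol. Of the 4 paralogs of subunit genes listed, TIM18, whose product works in protein import, was found by name. It had 1 read in all ethanol libraries together and 7, 2 and 2.5 reads in the glucose libraries, with a mean below the filter. Another feature called Succinate (chromosome 10, 339279 to 341183), of the same length, 1905 bases, as the SDH1 paralog SDH9 in the RefSeq table, had at most 2 reads in a library.

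Of the other TCA cycle enzymes, all 12 were tested, 10 passed and all of these were higher in ethanol (8 of 10 without CIT3 and YMR31). Their median log2 change was 1.77, and 1.49 without those genes, beside 2.90 for the 5 members and -0.08 for all features tested. CIT3, a mitochondrial citrate synthase isozyme, had 483, 524 and 634 nRPM in ethanol and a single read in the glucose libraries together (limma adjusted p = 0.000166). YMR31, a subunit of the alpha-ketoglutarate dehydrogenase complex, had 521 ± 176 nRPM in ethanol and 44.3 ± 26.0 in glucose (limma adjusted p = 0.00159), and CIT1, the main citrate synthase, had 2851 ± 2172 and 413.5 ± 51.8 (n = 3, ± SD, limma adjusted p = 0.00344). The other two were ACO1, aconitase, with a log2 change of 0.43, and LPD1, dihydrolipoamide dehydrogenase, with 1.08 and an adjusted p of 0.0506 just above the limma threshold. They are named because they did not pass, which was seen in the values.

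**Figure D5:**
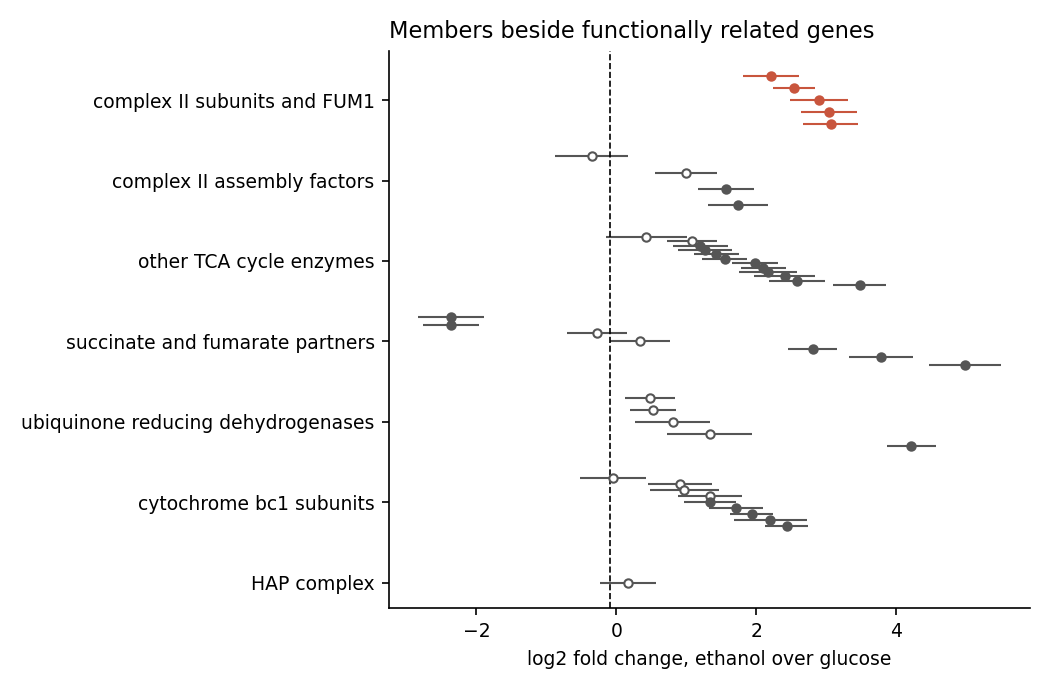
Log2 fold change (ethanol over glucose) with 1 SE for the 5 members, in red, and for the tested genes of each related list, in grey, where filled points had a limma adjusted p under 0.05 and the dashed line marks the median of all features tested, -0.08. The members span 2.21 to 3.06. The lists of partners and of dehydrogenases have single genes at 4.98 and 4.21 beside genes near 0. The axis label of the dehydrogenases, ubiquinone reducing, does not hold for DLD1.

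The list of succinate and fumarate partners holds enzymes and carriers that handle either compound, and also MDH2, which acts on malate. Of its 8 genes, 7 were found by name and tested, 3 were higher and 2 lower in ethanol, with a median of 0.34. Without ICL1 and SFC1, 1 of 5 was higher, which was MDH2, and 2 were lower, with a median of -0.28. ICL1, the isocitrate lyase that makes succinate in the glyoxylate cycle, had 2584 ± 2145 nRPM in ethanol and 18.6 ± 16.2 in glucose (n = 3, ± SD), a log2 change of 4.98 (limma adjusted p = 0.000110). SFC1, the mitochondrial carrier that exchanges succinate for fumarate, had 483, 419 and 1252 nRPM in ethanol and no read in glucose. It was at least 23.3-fold higher, against a floor of 3 reads per library, and at least 14.7-fold without ethanol replicate 3 (limma adjusted p = 0.000326). MDH2, the cytosolic malate dehydrogenase that uses the product of fumarase, had 722 ± 192 and 58.4 ± 2.87 nRPM (log2 change 2.80, limma adjusted p = 0.000386).

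The lower genes were ADE13 and ARG4, named after their values were seen, whose enzymes release fumarate during purine and arginine synthesis. ADE13 had 219.5 ± 157 nRPM in ethanol and 1141 ± 44.2 in glucose, a log2 change of -2.36 (limma adjusted p = 0.00560). ARG4 had 235 ± 168 and 1271 ± 141 nRPM, also a log2 change of -2.36 (limma adjusted p = 0.00243). The mRNAs of this list thus changed in both directions, and 2 of them did not pass. These were DIC1, with a log2 change of 0.34 (limma adjusted p = 0.609), and OSM1, with -0.28 (limma adjusted p = 0.681). A feature named only Fumarate (chromosome 5, 65683 to 67755, minus strand), not matched to a listed gene, did not pass either. Its log2 change was 0.35 (limma adjusted p = 0.674).

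Besides complex II, other dehydrogenases of the inner membrane pass electrons to the respiratory chain. Of 5 such genes tested (4 without NDE2), only GUT2, the glycerol-3-phosphate dehydrogenase, passed, with 2278 ± 669 nRPM in ethanol and 73.2 ± 26.9 in glucose (n = 3, ± SD), a log2 change of 4.21 (limma adjusted p = 4.78e-05). The NADH dehydrogenase genes NDI1, NDE1 and NDE2 and the D-lactate dehydrogenase gene DLD1 had log2 changes between 0.48 and 1.33. Of the 9 nuclear genes of the cytochrome bc1 complex, which takes the electrons on from ubiquinone, 5 passed, all higher in ethanol, with a median of 1.34 over the 9. QCR9 had the highest log2 change of them, 2.43 (limma adjusted p = 0.000386), before QCR10 with 2.20 and QCR7 with 1.94.

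HAP4 encodes the activating subunit of the HAP complex, a transcription factor known to act on respiratory genes. It had 188 ± 86.5 nRPM in ethanol and 154 ± 31.8 in glucose (n = 3, ± SD), a log2 change of 0.17 ± 0.40 (SE, limma adjusted p = 0.794). HAP2, HAP3 and HAP5 were below the filter, so that 1 of the 4 genes was tested.

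The named nuclear mRNAs whose log2 values followed the mean of the 5 members most closely over the 6 libraries were IDH1 (Pearson r = 0.999), CRC1 (0.998), SFC1 (0.996), AIM17 (0.995) and HSP82 (0.993), out of 3122 ranked. IDH1 encodes a subunit of the mitochondrial isocitrate dehydrogenase, CRC1 the mitochondrial carnitine carrier and HSP82 a cytosolic Hsp90 chaperone. The members' own r with that mean lay between 0.984 and 0.991. Each r rests on 6 libraries in 2 groups and on their differing depths, and is given as a description. CRC1, with a mean of 5.50 nRPM in glucose, and SFC1, with no read there, were ranked only through their ethanol values. IDH1 had 845, 734 and 1252 nRPM in ethanol and 206, 185 and 196 in glucose.

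SDH1 and SDH3 lie on the same chromosome, 8537 bases apart with 5 other features between them and on opposite strands. No member overlapped another listed feature. Of the 10 nearest neighbours, 7 were tested and 1 passed, against 10.5% of all features called higher. It was MRP8, which ends 492 bases before SDH3 on the same strand and had 866 ± 398 nRPM in ethanol and 118 ± 22.5 in glucose (n = 3, ± SD), a log2 change of 2.34 (limma adjusted p = 0.00285). DBR1, which follows SDH1 by 331 bases on its strand and encodes the enzyme that opens intron lariats, had a log2 change of 1.10 and at most 3 reads in a library (limma adjusted p = 0.103). With a mean of 17.9 nRPM in glucose, DBR1 entered the test through its ethanol values. VPS13, next to SDH2 at 279 bases on the same strand, had a log2 change of 0.09. UBC1, which ends 422 bases before SDH4 on the same strand, had 0.22.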

How the data were processed

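The authors deposited 1 CPM table per carbon source, with 3 library columns each and features on a CEN.PK113-7D assembly, per the file headers. Each column sums to 1000000. The submitters' processing notes name STAR 2.5.4a, SAMtools, featureCounts and edgeR, without roles or settings. Whether reads were counted by strand is not given in the sources used here.

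The members and gene lists were chosen with earlier results of these data known. CPM of nuclear mRNA features without ENO2 were rescaled to reads per 1000000 of their sum (nRPM). The tests used limma 3.58.1 in R 4.3.3 (lmFit, eBayes with an intensity trend, two-sided) on log2(nRPM + 50), for features that averaged at least 50 nRPM, with Benjamini-Hochberg adjustment over all of them and a threshold of 0.05. Ratios were tested by exact permutation in Python 3.11.15 with scipy 1.17.1. Figures used matplotlib 3.10.9.

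The CPM value of 1 read was read from the steps of the deposited values and gave 267509 to 1093126 assigned reads per library. Between 89.1% and 94.9% of the nonzero values were whole reads within 0.01 read, too few for a count test. Intervals are exact binomial ones at 95% for reads rounded to whole numbers. Besides the members, named genes were the 3 largest changes past the threshold in each list (where none passed, the highest mean) and the 5 most alike in pattern. Older names were matched through the RefSeq gene table (assembly R64), and of 48 listed genes 42 were found by name. The paralogs SDH9, SHH3 and SHH4 were not found under these names, and reads shared with paralogs were not assessed. Alternatives were other offsets, filters, scalings, variance models, library weights, voom on recovered reads, a replicate block and leaving out each library.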

Additional observations from a re-analysis of the deposited data

How the results depend on the processing

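Each member kept its direction in all 17 alternatives and stayed past the threshold in 16 of them for SDH1, SDH2 and SDH4 and in 15 for SDH3 and FUM1. The exceptions were the deposited CPM scale, with log2 changes of 2.08 (SDH1), 2.06 (SDH2), 1.18 (SDH3), 2.29 (SDH4) and 1.34 (FUM1), and ENO2 kept in the total, with 0.49 (SDH3) and 0.67 (FUM1). Leaving out 1 library gave 2.496 to 3.175 for SDH1, 2.77 to 3.40 for SDH2, 1.82 to 2.41 for SDH3, 2.83 to 3.33 for SDH4 and 2.35 to 2.68 for FUM1. The count of features called was 735 of 3393 tested. It was 241 of 1695 on the deposited CPM scale and 1428 of 1779 with ENO2 kept in the total. When 1 library was left out it lay between 276 (without glucose replicate 3) and 1324 (without ethanol replicate 3). It was 327 without glucose replicate 1 and 289 without glucose replicate 2. With the replicate number as a block it was 828, and all 5 members stayed past the threshold. Deviations of same-numbered libraries from their group means correlated at 0.0071, -0.011 and 0.044, so the numbers were not taken as pairs. The log2 ratios to SDH1 of SDH3 (-1.16 to -0.72) and FUM1 (-1.04 to -0.58) kept their sign, while that of SDH2 ran from -0.44 to 0.60, positive without ethanol replicate 3 (0.095) or glucose replicate 1 (0.60), and that of SDH4 ran from -0.046 (without glucose replicate 2) and -0.023 (without glucose replicate 3) to 0.80. Only 5 to 12 reads per member lay behind ethanol replicate 1, which limits these ratios.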
